A study of Homo sapiens with 8 samples.

Results

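The expression of 10 genes that set the brake on entry into S phase was examined in KG-1a cells, a human acute myeloid leukemia line, after knockdown of NYNRIN. The 10 genes were taken by symbol from the 13068 genes listed in both deposited expression tables. They are the CIP/KIP inhibitors CDKN1A and CDKN1B, the INK4 inhibitors CDKN2C and CDKN2D, the D cyclins CCND1, CCND2 and CCND3, the kinases CDK4 and CDK6, and RB1. All 10 were listed in both tables and all 10 passed the filter on low values.

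In G1, D cyclins bind CDK4 or CDK6, and the active kinases phosphorylate the retinoblastoma protein, which is encoded by RB1. Phosphorylation releases E2F factors, and these switch on the genes of DNA replication. INK4 proteins bind CDK4 and CDK6 and keep the D cyclins from activating them, whereas CIP/KIP proteins bind cyclin-CDK complexes and block mainly the CDK2 complexes. In blood stem and progenitor cells this balance is known for its part in quiescence, and CDK6 and the D cyclins are often active in leukemia.

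The cells were transduced with lentivirus carrying a control shRNA (shCTL, genotype labelled WT) or a shRNA against NYNRIN (shNYNRIN, genotype labelled NYNRIN-knockdown). They were then sorted, about 1000000 cells per library according to the labels, and sequenced as 4 libraries per group. All 8 libraries come from this 1 line, the labels give its origin as bone marrow and its type as leukemia stem cell, and no source used here describes the sort gate, the shRNA sequences or the time after transduction. The labels leave unsaid if replicates came from separate cultures, and the p-values cover only the spread between libraries, which may be technical. Each table holds 2 libraries of each group, replicates 1 and 2 (set 1) or replicates 3 and 4 (set 2).

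Levels are FPKM, fragments per kilobase of transcript scaled to the mapped fragments of the library, which can be compared between genes of different length. In the 7 libraries with decimal values FPKM summed to between 307554 and 311536 over the listed genes, and the depth in reads is unknown. The shCTL replicate 3 library holds whole numbers, so its values are given here but it entered no main test, and set 2 therefore rests on 1 control, shCTL replicate 4. That lone library is assumed to vary like the others, since its group's spread is estimated from the other arms. Effects are log2 fold changes, shNYNRIN over shCTL, of log2(FPKM + 1), which understates the change of low genes. They were tested with limma over 12939 genes with Benjamini-Hochberg adjustment, and a gene was called at an adjusted p below 0.05. The cells are a bulk population, so fewer cells expressing a gene and less RNA per cell cannot be told apart. All 8 haematopoietic progenitor markers examined were listed, with sums of 581 to 618 FPKM in shCTL and 535 to 647 FPKM in shNYNRIN. CD34, a defining marker of KG-1a, lay between only 0.681 and 1.79 FPKM. CD3E and MPO, markers of T cells and granulocytes, were listed at 0 in all 4 libraries of set 2. Other members of the same marker lists were present over the 8 libraries, CD4 at 15 to 18.4 FPKM and LYZ at 9.02 to 14.4 FPKM.

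NYNRIN itself had 12.2 and 12.5 FPKM in shCTL replicates 1 and 2, against 6.98 and 7.30 FPKM in shNYNRIN replicates 1 and 2. In set 2 it had 10 and 10.4 FPKM in shCTL replicates 3 and 4, against 2.83 and 2.84 FPKM in shNYNRIN replicates 3 and 4. The targeted transcript was lower in all 4 shNYNRIN libraries than in any control, and the knockdown effect of set 2 minus that of set 1 was -0.85 on the log2 scale (limma, adjusted p = 0.001316). The numbers in the library names run the other way for the controls: shCTL replicates 1 and 2 carry the library numbers 3 and 4, and shCTL replicates 3 and 4 carry 1 and 2, whereas the shNYNRIN numbers match their titles. Libraries with the same library number deviated together from their group means (r between 0.102 and 0.154 for the 4 numbers, across 5852 genes, which are not independent replicates), and libraries with the same title number did not (r between -0.175 and -0.128). Each group mean pools both sets, so these values cannot tell a pairing of single libraries from a difference between the sets. Around the means of group and set, libraries with the same title number had r of -0.037 and -0.039. Library numbers cannot be examined in that way, because they cross the sets. Each effect was also computed across the tables, with shNYNRIN replicates 1 and 2 set against shCTL replicate 4 and shNYNRIN replicates 3 and 4 against shCTL replicates 1 and 2. This comparison, chosen after the data were seen, is called the library-number comparison below, and it sets levels across tables that may have been normalised separately. Its set 1 then rests on shCTL replicate 4 alone, under the same assumption. Knockdown depth, table and library number cannot be told apart as sources of a difference between the sets.

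CCND1 had lower levels in shNYNRIN cells of set 1, and CDK4 and CDKN2D fell in set 2, whereas CDKN2C rose there, and these 4 calls held with either choice of controls. CDKN1A was called higher in set 1 and lower in set 2, but neither call held in the library-number comparison. CCND2, CCND3 and RB1 were not called in either set with either choice of controls. In set 1, 3 of the 10 genes were called, 1 higher and 2 lower, where 15.9% of all genes tested were called. In set 2, 5 of 10 were called, 1 higher and 4 lower, beside 20.3% of all genes. The difference between the sets was called for 5 of 10, beside 20.4% of all genes. Over both sets with 1 common effect, limma called 0 of 10 (4 at an unadjusted p below 0.05), beside 0.317% of all genes. In the library-number comparison the counts were 2 of 10 in set 1 beside 10.4% of all genes, 5 of 10 in set 2 beside 19.9%, 3 of 10 for the difference (CDKN2C, CDKN2D and CCND3) beside 11.7%, and 2 of 10 over both sets beside 4.07%. The median log2 fold change of the 10 genes was -0.08 in set 1 and -0.10 in set 2, beside 0.03 and 0.02 for all genes tested.

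**Figure D1:**
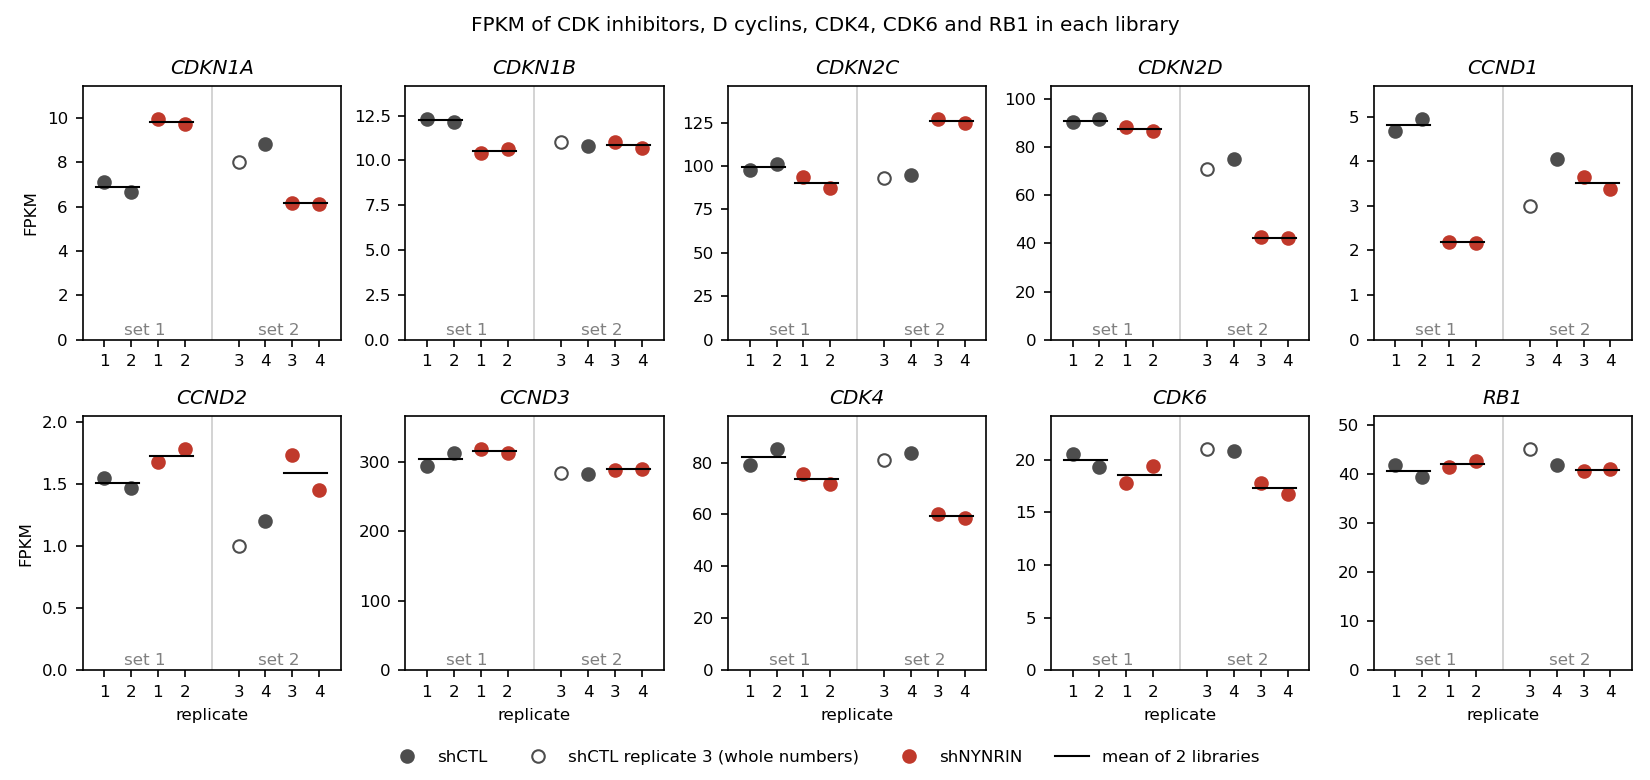
FPKM (vertical axis, from 0) of each of the 10 genes in each of the 8 libraries, by replicate number, with shCTL and shNYNRIN in different colours, an open circle for the whole-number library and a black line for the mean of 2 libraries. CDK4 is the only gene of the 10 whose 4 shNYNRIN values, 58.5 to 75.7, all lie below its 4 shCTL values, 79.1 to 85.0. Without the whole-number library this also holds for CCND1. The share of all genes that separate in this way was not counted.

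The levels of the 10 genes spanned a wide range. CCND3 was the most abundant, with a mean of 300.3 FPKM over the 7 decimal libraries, followed by CDKN2C at 103.8, CDKN2D at 73.8, CDK4 at 73.5 and RB1 at 41.2 FPKM. CDK6 (18.9 FPKM), CDKN1B (11.1), CDKN1A (7.80), CCND1 (3.58) and CCND2 (1.55) completed the order. Of the 9 pairs of neighbours in this order, 7 had ranges over the libraries that did not overlap. CDKN2C and CDKN2D overlapped, as did CDKN2D and CDK4. The spread across libraries was widest for CCND1, whose highest level was 2.29 times its lowest, and for CDKN2D at 2.17 times. It was narrowest for RB1 at 1.08 times and CCND3 at 1.12 times.

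Sequences before the transcription start were compared because CDK4 and CDKN2C hold the E-box CACGTG, the site read by MYC-MAX and related factors. No other matched gene of the 10 held it in the windows searched. RefSeq windows of 250 bases before the start (GRCh38.p14) matched 8 of the 10 genes, not CCND1 or CCND2, in 13 windows. The windows of CDKN1A, CDKN1B, CCND3, CDK4 and RB1 lie within the annotated genes. So do the CDKN2C windows that begin at 50968456 and 50969995 and the CDK6 window that begins at 92833960. The only RB1 window begins at 48476200, so the bases before the annotated start of RB1 at 48303726 were not searched. CACGTG reads the same on both strands and was present in 3 of the 13 windows, of 2 genes, and in 6.34% of the 35116 windows of all genes. The motif was brought forward for its presence in these genes, and windows of 1 gene are not independent. These shares are therefore a description and were not tested. The sites are shown 5′ to 3′ on the strand of the gene with the E-box in capitals and 10 bases on either side. The 3 CDK4 sites and the second CDKN2C site lie within the annotated genes and overlap, in whole or in part, exons annotated in GENCODE 29. Only the first CDKN2C site lies outside annotated exons. The second CDKN2C site lies in the window that begins at 50969995, and the window that begins at 50968456, before another start, holds none.
CDKN2C site 220 bases before the first start, chr1:50960515-50960540, plus strand: ttgtgcacctCACGTGgttagtcaca
CDKN2C site 69 bases before a second start, chr1:50970166-50970191, plus strand: gctgaataatCACGTGtgaatcgagg
CDK4 site 216 bases before the start, chr12:57752511-57752536, minus strand: gtcaagcggtCACGTGtgatagcaac
CDK4 site 196 bases before the start, chr12:57752491-57752516, minus strand: agcaacagatCACGTGgctgccatcg
CDK4 site 101 bases before the start, chr12:57752396-57752421, minus strand: gggtggcggtCACGTGcccagaacgt
The stretch before the start of CDKN2D, the gene with the deepest fall in set 2, held no CACGTG. Its 170 bases outside annotated exons, chr19:10569060-10569229 on the minus strand, are shown with the CCAAT box in capitals.
CDKN2D: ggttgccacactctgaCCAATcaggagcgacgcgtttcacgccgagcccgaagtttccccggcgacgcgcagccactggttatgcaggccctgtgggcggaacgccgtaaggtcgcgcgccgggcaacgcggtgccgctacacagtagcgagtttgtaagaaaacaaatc
A CCAAT box, searched as CCAAT on both strands, was in 5 of the 13 windows and in 32.01% of all windows. The 5 windows were of CCND3, CDKN1B, CDKN2C and CDKN2D. The E2F sites TTTGGCGC and TTTCGCGC, searched on both strands, were in none of the 13 windows and in 0.97% of all windows. The shorter E2F core GCGGGAA was in 1 of the 13 windows, of CDKN2C, and in 5.52% of all windows. The GC box GGGCGG was in 9 of the 13 windows, of 7 genes, and in 42.64% of all windows. These matches describe the letters in the windows only, and CDK4, which was called lower in set 2, and CDKN2C, which was called higher, both hold the E-box.

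CDKN1A (ENSG00000124762) encodes p21, the CIP/KIP inhibitor best known as a p53 target, and lies on chromosome 6 from 36676460 to 36687339 on the plus strand (GRCh38, GENCODE 29). Its level in set 1 was 7.12 and 6.67 FPKM in shCTL replicates 1 and 2, and 9.95 and 9.73 FPKM in shNYNRIN replicates 1 and 2. In set 2 it was 8 and 8.81 FPKM in shCTL replicates 3 and 4, and 6.19 and 6.13 FPKM in shNYNRIN replicates 3 and 4. The groups did not overlap within either set and pointed in opposite directions, and over all 8 libraries their ranges overlapped. The log2 fold change was 0.46 ± 0.05 (SE; limma, adjusted p = 0.004224) in set 1 and -0.45 ± 0.06 (adjusted p = 0.004755) in set 2. The difference between the sets was -0.91 ± 0.08 (limma, adjusted p = 0.001105). With library-number controls the values were 0.14 (limma, adjusted p = 0.2024) in set 1 and -0.14 (adjusted p = 0.1069) in set 2, and the difference of -0.29 was not called (adjusted p = 0.07296). The controls of the sets thus differed from each other, with 6.67 to 7.12 FPKM in one and 8 to 8.81 in the other, by an amount of the order of the effects.

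CDKN1B (ENSG00000111276; chromosome 12, 12715058 to 12722371, plus strand) encodes p27, a CIP/KIP inhibitor that is regulated largely at the level of protein stability. It was measured at 12.3 and 12.2 FPKM in shCTL replicates 1 and 2 and at 10.4 and 10.6 FPKM in shNYNRIN replicates 1 and 2. In set 2 the controls had 11 and 10.8 FPKM and the shNYNRIN libraries 11.02 and 10.7 FPKM. The shNYNRIN level of set 1 was 14.1% below its control, and the groups of set 2 overlapped. A log2 fold change of -0.20 ± 0.04 in set 1 was called (limma, adjusted p = 0.02676), and the 0.01 ± 0.05 of set 2 was not (adjusted p = 0.9313). Leaving out any 1 library other than shCTL replicate 4 ended the set 1 call in limma, with an adjusted p of 0.1167 without shCTL replicate 1, 0.1036 without shCTL replicate 2, and 0.07323, 0.05268, 0.05703 and 0.05664 without shNYNRIN replicates 1, 2, 3 and 4. Against controls of the same library number, set 1 gave -0.04 (limma, adjusted p = 0.7224) and set 2 gave -0.16 (adjusted p = 0.0466), so that the call moved from one set to the other.

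The ratio of CDKN1B to CDKN1A transcripts was 1.73 and 1.82 in shCTL replicates 1 and 2 and 1.04 and 1.09 in shNYNRIN replicates 1 and 2. In set 2 it was 1.22 in shCTL replicate 4 and 1.78 and 1.74 in shNYNRIN replicates 3 and 4. CDKN1B was the more abundant of the CIP/KIP transcripts in all 8 libraries.

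CDKN2C (ENSG00000123080; chromosome 1, 50960745 to 50974633, plus strand) encodes p18, an INK4 inhibitor. Its level was 97.9 and 101.1 FPKM in shCTL replicates 1 and 2 and 93.5 and 87.2 FPKM in shNYNRIN replicates 1 and 2. In set 2 it was 93 and 94.7 FPKM in shCTL and 127.0 and 124.9 FPKM in shNYNRIN. The 2 shNYNRIN libraries of set 2 were the highest of all 8, and the 2 of set 1 were below their controls. The log2 fold change was 0.41 ± 0.05 in set 2 (limma, adjusted p = 0.00238), an increase of 33.0% in FPKM, and -0.14 ± 0.04 in set 1 (adjusted p = 0.05654). The difference between the sets, 0.55 ± 0.06, was called (limma, adjusted p = 0.002194). Under library-number matching set 2 gave 0.34 (limma, adjusted p = 0.002773), set 1 gave -0.07 (adjusted p = 0.4159) and the difference 0.41 (adjusted p = 0.01079).

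CDKN2D (ENSG00000129355; chromosome 19, 10566462 to 10569059, minus strand) encodes p19, another INK4 inhibitor that binds the same kinases. It had 90.4 and 91.6 FPKM in shCTL replicates 1 and 2 and 88.1 and 86.6 FPKM in shNYNRIN replicates 1 and 2. The values of set 2 were 71 and 75.1 FPKM in shCTL replicates 3 and 4 and 42.5 and 42.3 FPKM in shNYNRIN replicates 3 and 4. The 2 shNYNRIN libraries of set 2 lay far below the other 6. Set 2 gave a log2 fold change of -0.81 ± 0.03 (limma, adjusted p = 0.0001232), and its FPKM fell by 43.6%, and in set 1 it was -0.06 ± 0.03 (adjusted p = 0.1951). The difference between the sets was -0.75 ± 0.04 (limma, adjusted p = 0.0003111). When controls were matched by library number, the fall in set 2 was -1.09 (limma, adjusted p = 2.024e-05), and set 1 turned to a call in the other direction, 0.22 (adjusted p = 0.01412).

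The 2 INK4 transcripts moved in opposite directions in set 2. The ratio of CDKN2C to CDKN2D was 1.08 and 1.10 in shCTL replicates 1 and 2, 1.26 in shCTL replicate 4, and 1.06 and 1.01 in shNYNRIN replicates 1 and 2. It was 2.99 and 2.96 in shNYNRIN replicates 3 and 4. The summed INK4 level was 169 and 167 FPKM in shNYNRIN replicates 3 and 4, close to the 170 FPKM of shCTL replicate 4 and below the 188 and 193 FPKM of shCTL replicates 1 and 2, their library-number controls. Over the 7 libraries CDKN2D was most like PIM1, a serine/threonine kinase (Pearson r = 0.998), FAM199X (r = 0.998) and DDX39A, an RNA helicase (r = 0.997). These were the 3 highest of all genes tested and are given as a description, since the libraries share tables and groups.

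**Figure D2:**
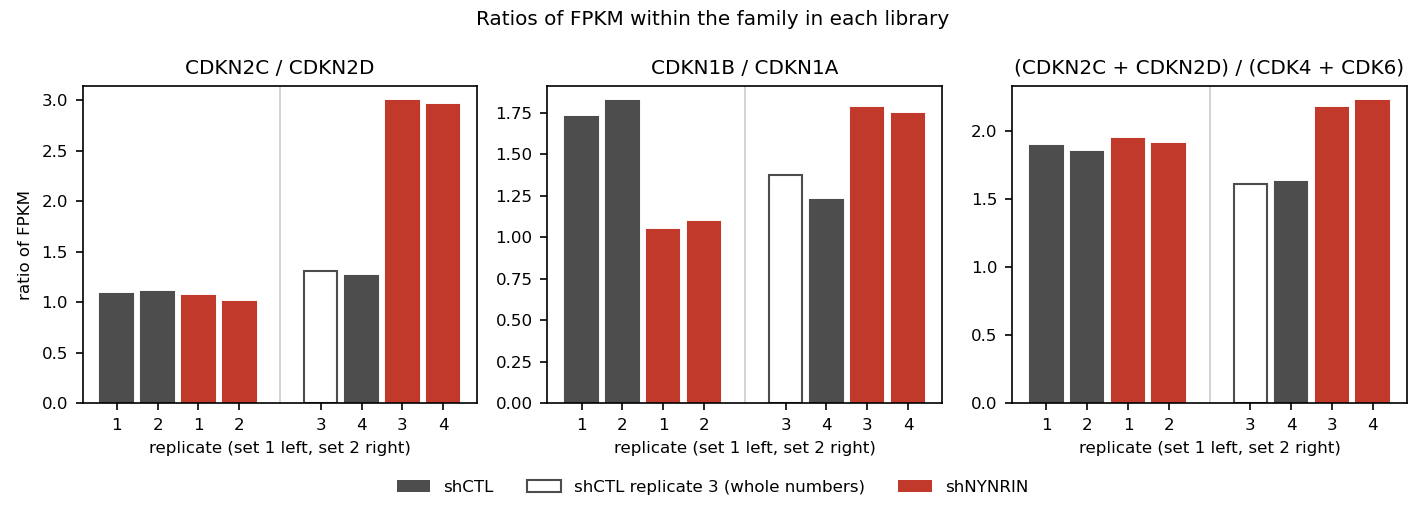
Ratios of FPKM (vertical axis, from 0) of CDKN2C to CDKN2D, of CDKN1B to CDKN1A, and of summed INK4 inhibitors to summed CDK4 and CDK6, with 1 bar for each library and the whole-number library open. The ratio of CDKN2C to CDKN2D is 2.96 and 2.99 in the shNYNRIN libraries of set 2 and between 1.01 and 1.31 in the other 6.

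Other inhibitors of the 2 families were scarce. CDKN2B was listed at 0 in all 4 libraries of set 2, CDKN1C reached at most 0.0807 FPKM there, and CDKN2A was not analysed here. CDKN3, a phosphatase that acts on CDK2, was called higher in set 1 at 0.51 (limma, adjusted p = 0.004345) and had 0.07 in set 2 (adjusted p = 0.5359). In the library-number comparison CDKN3 was called higher in both, 0.33 in set 1 (limma, adjusted p = 0.03658) and 0.25 in set 2 (adjusted p = 0.02864).

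CCND1 (ENSG00000110092; chromosome 11, 69641087 to 69654474, plus strand) encodes cyclin D1, the D cyclin most closely tied to growth factor signalling. Its level was 4.67 and 4.94 FPKM in shCTL replicates 1 and 2 and 2.20 and 2.16 FPKM in shNYNRIN replicates 1 and 2. The controls of set 2 had 3 and 4.04 FPKM and the shNYNRIN libraries 3.65 and 3.38 FPKM. The groups were far apart in set 1 and overlapped in set 2 only through the whole-number library. The mean fell by 54.7% in set 1, with a log2 fold change of -0.87 ± 0.07 (limma, adjusted p = 0.001686). In set 2 the change of -0.16 ± 0.09 was not called (limma, adjusted p = 0.2589), and the difference between the sets was 0.71 ± 0.11 (adjusted p = 0.007738). With library-number controls CCND1 was called lower in both sets, -0.67 in set 1 (limma, adjusted p = 0.008672) and -0.36 in set 2 (adjusted p = 0.0165), with no call for the difference of 0.30 (adjusted p = 0.1411). Its effect over both sets was then -0.48 (limma, adjusted p = 0.03038), against -0.59 with the table term (adjusted p = 0.1094). LTO1, on the opposite strand, shares 10.29% of the exonic bases of CCND1. The strand setting of the counting is not given, so their reads cannot be told apart there. LTO1 lay at 5.14 to 6.19 FPKM, above CCND1 in every library, and was not called in either set. The part of shared reads in the change of CCND1 was not tested.

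CCND2 (ENSG00000118971; chromosome 12, 4273772 to 4305350, plus strand), which encodes cyclin D2, had the lowest level of the 10. It was 1.55 and 1.47 FPKM in shCTL replicates 1 and 2, 1.68 and 1.78 FPKM in shNYNRIN replicates 1 and 2, 1 and 1.21 FPKM in shCTL replicates 3 and 4, and 1.74 and 1.45 FPKM in shNYNRIN replicates 3 and 4. The shNYNRIN libraries were higher in both sets, but the log2 fold change of 0.12 in set 1 had a 95% interval from -0.14 to 0.38, and that of 0.23 in set 2 from -0.08 to 0.55. Neither was called (limma, adjusted p = 0.4829 and 0.2724).

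CCND3 (ENSG00000112576; chromosome 6, 41934933 to 42050357, minus strand) encodes cyclin D3, the D cyclin known for its role in blood cell precursors. It had 295 and 313 FPKM in shCTL replicates 1 and 2, 318 and 314 FPKM in shNYNRIN replicates 1 and 2, 284 and 283 FPKM in shCTL replicates 3 and 4, and 289 and 290 FPKM in shNYNRIN replicates 3 and 4. CCND3 made up between 97.9% and 98.8% of the summed D cyclin FPKM in every library. The log2 fold change was 0.06 in set 1 (95% interval -0.02 to 0.13) and 0.03 in set 2 (-0.06 to 0.13), with limma adjusted p values of 0.2867 and 0.6392. Because CCND3 dominated, the share of CCND1 in the D cyclin sum was only 1.55% in shCTL replicates 1 and 2 and 0.682% and 0.681% in shNYNRIN replicates 1 and 2. With library-number controls CCND3 had 0.16 in set 1 (limma, adjusted p = 0.05336) and -0.07 in set 2 (adjusted p = 0.1772), and the difference of -0.23 between the sets was called (adjusted p = 0.03574). The D cyclin sum stayed between 288 and 322 FPKM over the 8 libraries.

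By the same measure of likeness, CCND1 was closest over the 7 libraries to SREBF1, a lipid synthesis regulator (r = 0.991), TOMM20, a subunit of the mitochondrial import receptor (r = 0.990), and MBNL3, a splicing regulator (r = 0.985).

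CDK4 (ENSG00000135446; chromosome 12, 57747727 to 57756013, minus strand) encodes a kinase partner of the D cyclins. Its levels were 79.1 and 85.0 FPKM in shCTL replicates 1 and 2 and 75.7 and 71.9 FPKM in shNYNRIN replicates 1 and 2. For set 2 they were 81 and 83.8 FPKM in shCTL replicates 3 and 4 and 60.3 and 58.5 FPKM in shNYNRIN replicates 3 and 4. All 4 shNYNRIN libraries lay below all 4 controls, which holds for no other gene of the 10. Without the whole-number library CCND1 separated as well, with 4.04 to 4.94 FPKM in shCTL and 2.16 to 3.65 FPKM in shNYNRIN. The share of all genes that separate in this way was not counted. The controls of the sets were close to each other. The log2 fold change was -0.49 ± 0.05 in set 2 (limma, adjusted p = 0.002054), and its FPKM fell by 29.03%, and -0.15 ± 0.04 in set 1 (adjusted p = 0.06449). The difference between the sets was -0.34 ± 0.07 (limma, adjusted p = 0.01833), which was no longer called once shNYNRIN replicate 4 was left out (adjusted p = 0.06552). The library-number comparison gave -0.46 in set 2 (limma, adjusted p = 0.001534), -0.18 in set 1 (adjusted p = 0.0857) and -0.28 for the difference (adjusted p = 0.05026). Its effect over both sets was -0.29 (limma, adjusted p = 0.1218), and -0.35 in the library-number comparison (adjusted p = 0.03596). TSPAN31, on the opposite strand, shares 43.21% of the exonic bases of CDK4, and without a stated strand setting their reads cannot be told apart there. The part of shared reads in the change of CDK4 was not tested. TSPAN31 lay at 7.03 to 9.39 FPKM, well below CDK4, and was not called in either set, with log2 fold changes of -0.09 (limma, adjusted p = 0.3598) and 0.23 (adjusted p = 0.07156).

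CDK6 (ENSG00000105810; chromosome 7, 92604921 to 92836594, minus strand), the other kinase partner, had 20.6 and 19.4 FPKM in shCTL replicates 1 and 2 and 17.8 and 19.4 FPKM in shNYNRIN replicates 1 and 2. Set 2 had 21 and 20.8 FPKM in shCTL and 17.8 and 16.8 FPKM in shNYNRIN. The groups overlapped in set 1 and not in set 2. For CDK6 the log2 fold change was -0.10 ± 0.06 in set 1 (limma, adjusted p = 0.288) and -0.26 ± 0.07 in set 2 (adjusted p = 0.04351). Its set 2 call did not survive in limma when shCTL replicate 1 (adjusted p = 0.05832), shCTL replicate 2 (0.05806), shNYNRIN replicate 3 (0.08274) or shNYNRIN replicate 4 (0.1646) was left out, nor with library-number controls (-0.20, adjusted p = 0.05384).

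The summed level of CDK4 and CDK6 was 99.7 and 104.4 FPKM in shCTL replicates 1 and 2, 93.6 and 91.3 FPKM in shNYNRIN replicates 1 and 2, 102 and 104.6 FPKM in shCTL replicates 3 and 4, and 78.2 and 75.3 FPKM in shNYNRIN replicates 3 and 4. The 4 shNYNRIN values lay below the 4 controls, which largely repeats the separation of CDK4, the larger part of each sum. The ratio of summed INK4 to summed kinase FPKM was 2.17 and 2.22 in shNYNRIN replicates 3 and 4, 1.94 and 1.90 in shNYNRIN replicates 1 and 2, and 1.61 to 1.89 in the 4 controls. The groups did not overlap, and the margin in set 1 was small. This ratio has the same kinase sum as its denominator, so it is not a separate observation. These sums and ratios were not tested, and how often those of other genes separate in this way was not counted.

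RB1 (ENSG00000139687; chromosome 13, 48303726 to 48599436, plus strand) encodes the substrate of these kinases. It was at 41.7 and 39.4 FPKM in shCTL replicates 1 and 2, 41.4 and 42.7 FPKM in shNYNRIN replicates 1 and 2, 45 and 41.8 FPKM in shCTL replicates 3 and 4, and 40.6 and 41.0 FPKM in shNYNRIN replicates 3 and 4. The groups overlapped in set 1. Log2 fold changes were 0.05 in set 1 (95% interval -0.04 to 0.14) and -0.03 in set 2 (-0.15 to 0.08), with limma adjusted p values of 0.4182 and 0.6726.

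**Figure D3:**
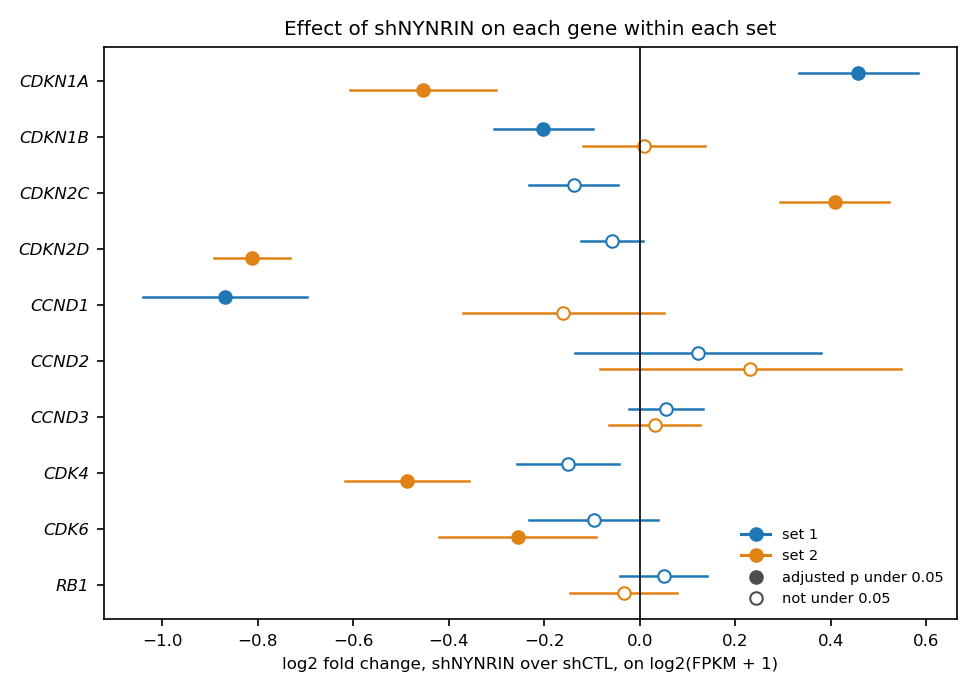
Log2 fold change of shNYNRIN over shCTL on log2(FPKM + 1) (horizontal axis) for each of the 10 genes in set 1 (blue) and set 2 (orange), with 95% intervals and filled points at an adjusted p below 0.05. CDKN1A lies at 0.46 in set 1 and -0.45 in set 2, whereas CCND3 and RB1 stay within 0.06 of 0 in both.

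In the authors' deposited table, which compares the groups of set 1, 6 of the 10 genes had a q below 0.05, 5 lower and 1 higher, beside 19.9% of all 13068 genes. The authors' deposited table gave log2 fold changes of -1.17 for CCND1 (q = 2.69e-19), 0.48 for CDKN1A (q = 8.775e-05) and -0.25 for CDKN1B (q = 0.002585). It also listed CDKN2C at -0.17 (q = 0.0009456), CDK4 at -0.18 (q = 0.004105) and CDK6 at -0.13 (q = 0.0277), 3 genes that limma did not call in set 1. CCND2, CCND3, CDKN2D and RB1 had q of 0.1975 or more in the authors' deposited table.

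Other genes of the pathway were described from 8 lists. Among 20 E2F-regulated S phase genes, 17 were called lower and 0 higher in set 2, beside 20.3% of all genes called. Their median log2 fold change was -0.41 beside 0.02 for all genes. In set 1, 7 were called lower and 3 higher, beside 15.9% of all genes, with a median of -0.10. Against controls of the same library number, 15 genes were called lower and 0 higher in set 2 (median -0.27), beside 19.9% of all genes. In set 1 they were 9 lower and 1 higher (median -0.18), beside 10.4%. Lower S phase genes were thus the more frequent call in both sets with either choice of controls. TYMS, thymidylate synthase, fell by 1.54 on the log2 scale in set 2 (limma, adjusted p = 0.0001711) and had -0.18 in set 1 (adjusted p = 0.088), against -1.38 and -0.34 in the library-number comparison. MCM6, a subunit of the replicative helicase, had 63.7 and 63.7 FPKM in shCTL replicates 1 and 2, 81.5 and 79.8 in shNYNRIN replicates 1 and 2, 100 and 99.5 in shCTL replicates 3 and 4, and 63.4 and 64.3 in shNYNRIN replicates 3 and 4. It was called higher in set 1 at 0.34 (limma, adjusted p = 0.001683) and lower in set 2 at -0.63 (adjusted p = 0.000275), but had -0.30 in set 1 (adjusted p = 0.005294) and 0.00 in set 2 (adjusted p = 0.9485) in the library-number comparison.

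Of 11 tested pocket proteins, E2F and DP factors, 1 was called higher and 1 lower in set 1, beside 15.9% of all genes, and 2 higher and 3 lower in set 2, beside 20.3%. The library-number counts were 2 higher and 0 lower in set 1, beside 10.4% of all genes, and 1 higher and 3 lower in set 2, beside 19.9%. E2F1, an activator of S phase genes, had 52.1 FPKM in shCTL replicate 4 and 35.7 and 34.2 FPKM in shNYNRIN replicates 3 and 4. Its log2 fold change was -0.56 in set 2 (limma, adjusted p = 0.0008181) and -0.03 in set 1 (adjusted p = 0.6383), and the difference of -0.53 was called (adjusted p = 0.002186). Under library-number matching E2F1 had -0.60 in set 2 (limma, adjusted p = 0.0003776) and 0.01 in set 1 (adjusted p = 0.9566). E2F8, a repressor, was called lower in set 2 at -0.45 (limma, adjusted p = 0.01253) and was at -0.16 in set 1 (adjusted p = 0.1668). RBL1, a relative of RB1, was called higher in set 1 at 0.28 (limma, adjusted p = 0.04459), a call absent from the library-number comparison (0.04, adjusted p = 0.8368). Of 7 DREAM and MuvB subunits and partners, 0 were called in set 1 and 1 in set 2, RBBP4 at -0.27 (limma, adjusted p = 0.005525). RBBP4 was not called with library-number controls (-0.10, limma, adjusted p = 0.07946), where the counts were 0 in set 1 and 1 lower, another gene, in set 2. These DREAM and MuvB counts stand beside the same shares of all genes called.

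Among 12 cyclins, kinases and phosphatases of late G1 to M phase, 7 were called higher and 0 lower in set 1 (median 0.25), and 1 higher and 3 lower in set 2 (median -0.06). The shares of all genes called were 15.9% and 20.3%. When controls were matched by library number, this became 3 higher and 0 lower in set 1 (median 0.10) and 3 higher and 3 lower in set 2 (median 0.07). The shares of all genes called were then 10.4% and 19.9%. CCNB1, the mitotic cyclin B1, was called higher in set 1 at 0.51 (limma, adjusted p = 0.0009566) and had -0.02 in set 2 (adjusted p = 0.8079). In the library-number comparison it was called higher in both at 0.24 (limma, adjusted p = 0.02101) and 0.25 (adjusted p = 0.005724). CDC25A, the phosphatase that activates CDK2, was called higher in set 1 at 0.17 (limma, adjusted p = 0.03917) and lower in set 2 at -0.46 (adjusted p = 0.002054). With library-number controls only the fall of CDC25A in set 2 was called (-0.27, limma, adjusted p = 0.007439). CDC25B, which acts at entry into mitosis, was called higher in set 1 at 0.40 (limma, adjusted p = 0.005525), and at 0.32 with library-number controls (adjusted p = 0.02532).

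Genes of the turnover of p27, p21 and D cyclins gave 3 of 11 called higher and 0 lower in set 1, and 0 higher and 2 lower in set 2, beside 15.9% and 20.3% of all genes called in the sets. These counts did not carry over to the library-number comparison, which gave 0 higher and 1 lower in set 1 and 1 higher and 0 lower in set 2. There 10.4% and 19.9% of all genes were called. CKS2, a cofactor of CDKs, was called higher in set 1 at 0.32 (limma, adjusted p = 0.01846), and FBXW7, a ubiquitin ligase subunit that targets cyclin E, at 0.26 (adjusted p = 0.03439). SKP2, the subunit that recognises phosphorylated p27, was called lower in set 2 at -0.29 (limma, adjusted p = 0.04434). Of the CDK-activating kinase, MNAT1 was called higher in set 1 at 0.21 (limma, adjusted p = 0.04679) and CCNH was not called in either set. With library-number controls neither subunit was called. The same controls gave SKP2 0.03 in set 2, and CKS2 0.18 and FBXW7 0.15 in set 1, none of them called. FBXW7 was then called higher in set 2, at 0.24.

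Of 18 tested p53 pathway genes beside CDKN1A, 1 was called higher and 5 lower in set 1, with a median of -0.05, while CDKN1A was called higher there. In set 2, 3 were called higher and 3 lower, with a median of 0.02, while CDKN1A was called lower. The shares of all genes called were 15.9% in set 1 and 20.3% in set 2. BBC3, which encodes the cell death protein PUMA, was called lower in set 1 at -0.48 (limma, adjusted p = 0.01767), as was the nuclease gene AEN at -0.44 (adjusted p = 0.004247). TP53INP1 was the gene called higher in set 1, at 0.41 (limma, adjusted p = 0.008672). Against controls of the same library number, 4 genes were called higher and 1 lower in set 1, and 1 higher and 3 lower in set 2. The shares of all genes called were then 10.4% and 19.9%. AEN (-0.41) and TP53INP1 (0.33) kept their set 1 calls in that comparison, whereas BBC3 (-0.32) was not called. Over both sets, with the table term, 0 genes of any of the 8 lists were called by limma, beside 0.317% of all genes. The library-number comparison, with 4.07% of all genes called over both sets, called 11 of the 20 S phase genes lower (median -0.22), 3 of the 12 late G1 to M phase genes higher, CDKN3 higher and 1 of the 18 p53 pathway genes lower.

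**Figure D4:**
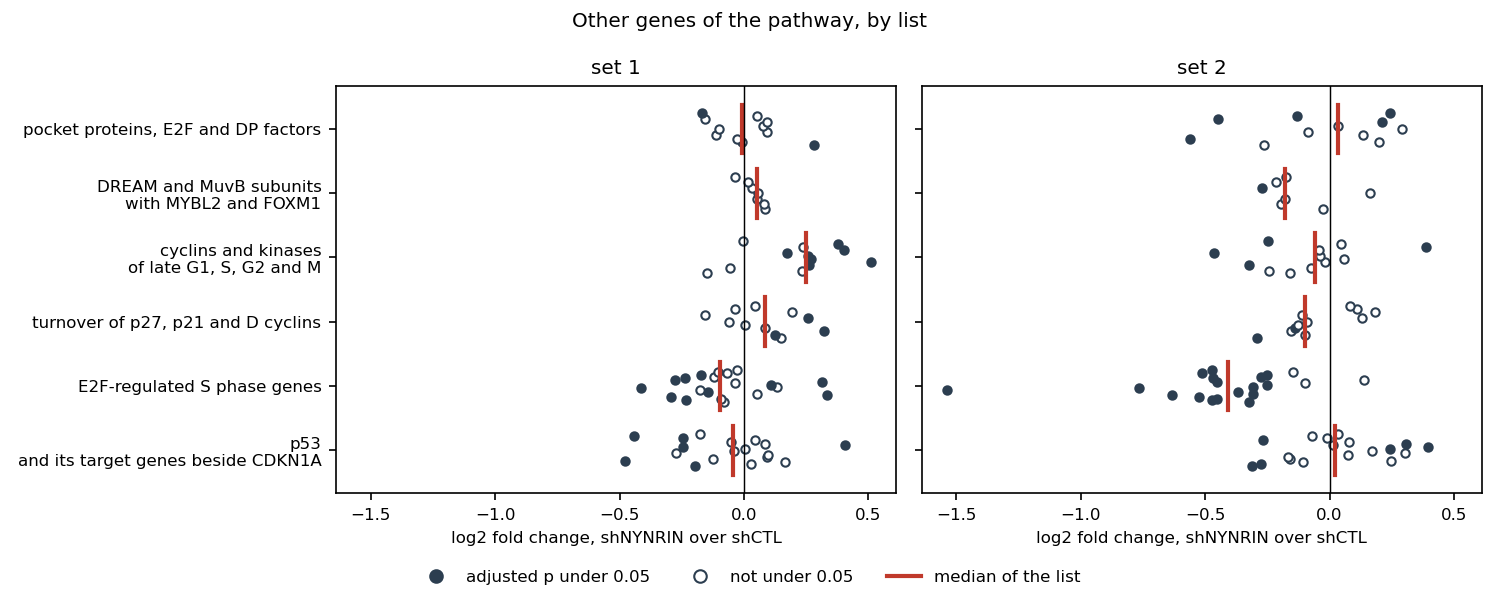
Log2 fold change of shNYNRIN over shCTL (horizontal axis) of each tested gene of 6 pathway lists in set 1 and in set 2, with filled points at an adjusted p below 0.05 and a red bar at the median of each list. The S phase genes lie furthest to the left in set 2, with a median of -0.41, and the late G1 to M phase genes lie to the right in set 1, with a median of 0.25.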

How the data were processed

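RNA from 8 libraries of sorted KG-1a cells, 4 per group, was sequenced from mRNA amplified with the SMART-Seq v4 kit, per the labels' protocols. Per the submitters' processing notes the tools were Bowtie 0.12.9, Cufflinks 2.1.1 and HTSeq, and the builds mm10 and hg38, with no role or order given. The authors deposited 2 tables, one for each set, with a value per library whose sums and decimals fit FPKM; the unit is read from the values. The deposited table of set 1 also holds the authors' mean normalized count (treated as a score), log2 fold change, p-value and adjusted q-value, and no source used here names the test. The authors deposited 0.001 in place of 0 in set 1, and these were set to 0. In the whole-number library, shCTL replicate 3, genes of 10 to 30 FPKM lay a median of 0.50 below shCTL replicate 4, as after dropping decimals.

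Values were transformed to log2(FPKM + 1). Genes with at least 1 FPKM in at least 2 of the 7 decimal libraries were kept, 12939 of 13068. Limma 3.58.1 (R 4.3.3) with a mean-variance trend fitted group by set (3 residual degrees of freedom) for the effect in each set and their difference, and group plus set (4 residual degrees of freedom) for 1 common effect. The procedure was tested on simulated data. Library numbers were taken as pairs by the rule that every number's correlation exceed 0.1, although group means that pool both sets cannot pair single libraries. A replicate block on library numbers can be fitted only over both sets, where it called 0 of the 10 genes, as did the fit without it.

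The 10 genes, the pathway lists and the cell type markers were chosen with earlier results of these data known. Named from each list were up to 3 called genes with the largest log2 fold change in either set; 1 gene that this rule names is not reported here. For the 2 of the 10 genes with the largest log2 fold change, the 3 genes with the highest Pearson correlation were named. Marker sums were 88.2 to 97.1 FPKM in shCTL and 89.0 to 102 FPKM in shNYNRIN for 6 erythroid genes. The sums of the listed markers were 15.4 to 16.3 and 15.3 to 18.4 FPKM for T cells (CD4 only), and 2.32 to 2.59 and 2.28 to 3.46 FPKM for B cells. They were 9.97 to 10.5 and 13.1 to 15.4 FPKM for monocytes and granulocytes (LYZ and CSF1R), and 79.4 to 85.1 and 90.4 to 92.5 FPKM for stromal or epithelial genes, mostly VIM and PECAM1. The part of these markers in the results was not tested. Other pseudocounts, filters, scalings, controls, replicate blocks and the omission of each library were tried as alternatives.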

Additional observations from a re-analysis of the deposited data

Results flagged for a closer look

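The effect of shNYNRIN differed between the sets for 5 of the 10 genes, by a test of the difference itself (limma, set 2 minus set 1). The differences on the log2(FPKM + 1) scale were -0.91 for CDKN1A, 0.55 for CDKN2C, -0.75 for CDKN2D, 0.71 for CCND1 and -0.34 for CDK4. With controls matched by library number, CDKN2C (0.41) and CDKN2D (-1.30) were called again, CCND3 (-0.23) was called in addition, and CDKN1A (-0.29), CCND1 (0.30) and CDK4 (-0.28) were not. No single library stood apart in the 20 combinations of gene and group examined, but each group pools both sets, and a split of 2 libraries against 2, as for CDKN2D in shNYNRIN, cannot be picked up that way.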

How the results depend on the processing

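Of 788 alternative values of the log2 fold changes, 705 kept their direction and side of the threshold, 27 lost a call, 26 gained one and 30 changed sign. None of the 13 calls changed sign. CDKN2C, CDKN2D and CDK4 in set 2, CCND1 in set 1, and the differences of CDKN2C and CDKN2D kept their call under every alternative run. The set 1 count rose from 3 to 5, adding CDKN2C and CDK4, under quantile normalization, upper-quartile scaling, and with shCTL replicate 3 as deposited or plus 0.5. Over all genes tested in set 1, 1207 were called higher and 855 lower, against 925 and 965 under quantile normalization and 807 and 1173 under upper-quartile scaling. The replicate block by title number lowered set 2 from 5 to 3 genes and the difference from 5 to 3, although title numbers were not shown to pair libraries. At least 10 FPKM left 3 called for the difference, with fewer genes tested, and controls matched by library number also left 3. Over both sets the count was 1 (CDK4) with shCTL replicate 3 as deposited or plus 0.5, 2 with library-number controls and 5 with the effects averaged. Leaving out 1 library gave counts of 2 to 3 in set 1, 4 to 5 in set 2, 4 to 5 for the difference and 0 to 3 over both sets, with 3 without shCTL replicate 4, where set 2 has no control left.

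All sign changes were of effects that the main fit did not call. With library-number controls they were CCND2 and CDKN1B differences of -0.26 and -0.12, and CCND3, CDKN1B and RB1 in set 2 at -0.0702, -0.16 and 0.0090. The others there were CDKN2D in set 1 at 0.22, CDKN1A over both sets at -0.0268 and the RB1 difference of 0.0017. Of these, CDKN2D in set 1 and CDKN1B in set 2 were called after the change, and they count above as sign changes, not as gained calls. CDKN1B in set 2 was -0.0190 under quantile normalization, -0.0116 under upper-quartile scaling, -0.0120 with the title replicate block, and -0.0046, -0.0340 and -0.0767 with shCTL replicate 3 as deposited, plus 0.5, or plus 0.5 in place of replicate 4; without 1 library it ranged from -0.0120 to 0.0293. With the replacement CCND1 in set 2 was 0.0040 and the CCND2 difference -0.0709, and as deposited CCND1 was 0.0071. The CCND3 difference was 0.0093 under quantile normalization and -0.0678 to 0.0193 without 1 library. Over both sets CDKN1A was -0.0506 with the replicate block by library number and -0.0185 to 0.4580 without 1 library, and CDKN2C was -0.14 to 0.1596. RB1 over both sets was -0.0143 under upper-quartile scaling, -0.0179, -0.0218 and -0.0315 with shCTL replicate 3 as deposited, plus 0.5 or in place of replicate 4, and -0.0120 to 0.0498 without 1 library. The causes were not tested. Depth in reads is unknown, so counting error of the low genes CCND2 and CCND1 could not be given.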

Other observations

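Among markers outside the cell cycle genes, VIM, an intermediate filament gene, had 43 to 46.4 FPKM in the 4 shCTL libraries and 55.3 to 56.3 FPKM in the 4 shNYNRIN libraries, and LYZ, which encodes lysozyme, had 9.02 to 10 and 12.2 to 14.4 FPKM. The groups did not overlap for either gene, but the share of all genes that separate in this way was not counted. VIM and LYZ were picked out after their values were seen and were not tested. MYB, a progenitor transcription factor, instead had 93.7 and 90.5 FPKM in shCTL replicates 1 and 2, 75 and 74.5 in shCTL replicates 3 and 4, 75.4 and 71.8 in shNYNRIN replicates 1 and 2, and 94.4 and 94.7 in shNYNRIN replicates 3 and 4, so that its levels were alike among libraries of nearby library numbers. PTPRC, the pan-leukocyte marker CD45, had 30.7 and 30.6, 22 and 23.2, 24.3 and 24.4, and 27.02 and 27.004 FPKM in the same order. CD44 was alike in this way, with 16.5 and 18.1, 12 and 12.8, 14.2 and 14.5, and 17.8 and 20.2 FPKM. GATA2 was not, with 204 and 208, 213 and 217, 172 and 171, and 244 and 244 FPKM. Nor was KIT, with 30.2 and 28.5, 21 and 19.9, 30.8 and 34.4, and 28.9 and 27.4 FPKM. These progenitor markers were picked out after their values were seen and were not tested.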
